A study of Mus musculus with 8 samples.

Results

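The genes described here are 40 genes of glycolysis, of glucose and lactate transport, of the pentose phosphate pathway and of the response to low oxygen. They were listed by pathway and read in 4 G-CSF and 4 PBS samples. Each gene is represented by the probe set that names it alone and has the highest mean over the arrays, and 39 of the 40 had such a probe set, among 19938 genes measured in this way. G6pdx, which opens the pentose phosphate pathway, had none and was not analysed here.

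The samples were KSL SLAM hematopoietic stem cells sorted from mouse bone marrow as lineage-negative, c-Kit+, Sca-1+, CD150+, CD48- and CD41- cells. The mice received granulocyte colony-stimulating factor (G-CSF), a cytokine that drives neutrophil production, subcutaneously at 125 mcg per kg with 2 doses a day, or PBS alone, and the cells were taken at 36 hours. Each sample pooled cells of 5 to 10 mice and was amplified and hybridized to a MoGene 1.0 ST array. The dose is recorded in the protocol field of both groups, and the groups were taken from the sample titles. The sources give no strain, age or sex. The series' design calls the samples of each group independent, and because each is a pool, the spread between arrays is a spread between pools and not between mice.

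Glycolysis splits glucose to pyruvate in the cytosol. Lactate dehydrogenase turns pyruvate to lactate, and pyruvate dehydrogenase kinases hold pyruvate back from oxidation in the mitochondria. The pentose phosphate pathway branches off after hexokinase and yields NADPH and the sugar of nucleotides. Hypoxia-inducible factors (HIF) are transcription factors that prolyl hydroxylases mark for destruction in oxygen, and they bind a DNA core of A or G followed by CGTG at many glycolytic genes. Hematopoietic stem cells are known for residing in a marrow of low oxygen and for relying on glycolysis while quiescent.

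Values are log2 intensities, and a fold change is the mean of the 4 G-CSF arrays minus the mean of the 4 PBS arrays. Intensities of different probe sets cannot be set against each other, so only differences between arrays are read. No detection calls were available. Group differences were tested with limma over all 19938 genes with Benjamini-Hochberg adjustment, and a gene was called at an adjusted p under 0.05. The groups of a gene are said to lie apart where no G-CSF value reaches the range of the PBS values. A change in RNA per cell and a change in the make-up of the sorted cells cannot be told apart in pooled cells.

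The array of PBS replicate 3 differed from all others. Its correlation with them was 0.883 to 0.903, against 0.956 to 0.977 among the other 7, and its interquartile range was 1.68 against 2.41 to 2.80. It held the lowest of the 8 values for 24 of the 39 members (61.5%), as it did for 22.7% of all genes and for 43.2% of the 9969 brighter genes, to which 37 members belong. Within the PBS group it was the lowest for the same number of members, against 27% of all genes and 49.6% of the brighter genes. Fold changes are therefore given with and without it. As a check of the labels, Socs3, the feedback inhibitor induced by the G-CSF receptor, ranged from 7.27 to 7.75 in G-CSF samples and from 5.99 to 6.40 in PBS samples. Of the sorting markers, Kit ranged from 10.24 to 10.49 in G-CSF and 10.45 to 10.94 in PBS samples, and Slamf1 (CD150) from 6.05 to 7.16 and 5.94 to 7.24. The log2 fold change of Kit was -0.35 on all arrays. Without PBS replicate 3 it was -0.44 (limma adjusted p = 0.389), and its groups then lay apart with G-CSF lower. That of Slamf1 was 0.16, and -0.07 without PBS replicate 3. Cd48, a marker the sort excludes, ranged from 7.24 to 8.95 in G-CSF samples, with the highest value in replicate 4, and from 6.66 to 7.57 in PBS samples. Itga2b (CD41), also excluded, ranged from 7.185 to 7.74 in G-CSF and from 7.06 to 7.72 in PBS samples.

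The sequences that bear on these genes are their promoters, since HIF is known to act there. The promoters of 37 of the 40 genes, 51 in all because some genes have several starts, were found in a RefSeq table (GRCm38.p6). The 250 bases before each start were searched on both strands for ACGTG and GCGTG, the HIF core. A palindromic CACGTG, the E-box that MYC and other factors bind, counts as a match of ACGTG on each strand. The promoters shown are those of the 5 members whose groups lay apart and of Pgd, which had the largest fold change. Slc2a1 and Bnip3 were added as known HIF targets whose groups overlapped, and members whose groups lay apart can be HIF targets as well. Capitals mark each match on either strand. For a gene with several starts, the most upstream promoter is shown. Where a match lay inside an annotated gene, only the 30 bases around it are given.
Pgk1, chrX:106186850-106187099, plus strand: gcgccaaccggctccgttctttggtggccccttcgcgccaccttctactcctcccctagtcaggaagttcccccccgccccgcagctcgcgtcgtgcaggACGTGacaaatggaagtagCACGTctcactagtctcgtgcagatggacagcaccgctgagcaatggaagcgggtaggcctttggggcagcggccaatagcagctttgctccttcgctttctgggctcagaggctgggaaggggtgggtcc
Pgam1, chr19:41911621-41911870, plus strand: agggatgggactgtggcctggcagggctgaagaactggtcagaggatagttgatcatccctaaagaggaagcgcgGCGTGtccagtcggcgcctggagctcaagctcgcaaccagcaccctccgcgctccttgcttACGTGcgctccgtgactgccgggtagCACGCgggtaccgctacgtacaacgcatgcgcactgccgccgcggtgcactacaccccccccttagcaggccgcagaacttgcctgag
Ldha, chr7:46845653-46845682, plus strand: gcagcaCACGTGgagccactcttgcaggga
Ldha, chr7:46845750-46845779, plus strand: agcctaCACGTGggttcccgCACGTccgct
Eno3, chr11:70657034-70657063, plus strand: gagaagggggtaCACGCcccagggccccag
Pfkfb3, chr2:11553972-11554001, minus strand: ctccgcgccgtgACGTGccaagctgtgacc
Pgd, chr4:149166706-149166955, minus strand: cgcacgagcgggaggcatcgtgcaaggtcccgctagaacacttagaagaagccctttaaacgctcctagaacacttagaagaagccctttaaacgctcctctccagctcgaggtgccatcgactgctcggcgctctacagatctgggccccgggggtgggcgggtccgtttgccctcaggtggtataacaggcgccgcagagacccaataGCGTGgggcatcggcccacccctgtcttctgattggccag
Slc2a1, chr4:119108672-119108701, plus strand: tccccacagaacCACGCctctcagagtccc
Slc2a1, chr4:119108697-119108726, plus strand: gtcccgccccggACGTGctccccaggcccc
Bnip3, chr7:138909507-138909756, minus strand: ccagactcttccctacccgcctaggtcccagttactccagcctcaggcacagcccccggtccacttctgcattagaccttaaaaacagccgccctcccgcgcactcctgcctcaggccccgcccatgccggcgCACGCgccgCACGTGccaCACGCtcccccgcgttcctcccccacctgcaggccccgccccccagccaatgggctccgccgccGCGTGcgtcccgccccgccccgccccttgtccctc

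ACGTG stood in 24 of the members' 51 promoters (47.1%), against 16.6% of all 32851 promoters in the table and 18.4% of the 19177 promoters of genes on the array. GCGTG stood in 29 of the 51 (56.9%), against 28.2% of all promoters and 35.9% of those of genes on the array. By gene, ACGTG was found for 21 of 37 members (56.8%), against 18.5% of all genes with a promoter in the table and 20.9% of those on the array. It was found for 3 of 3 transporters with a promoter in the table and 4 of 8 genes of hexokinase and phosphofructokinase. The counts were 5 of 9 genes from aldolase to lactate dehydrogenase and 2 of 4 pyruvate dehydrogenase kinases. They were 3 of 3 HIF factors and hydroxylases and 4 of 4 HIF targets outside glycolysis. ACGTG was found for 0 of 6 pentose phosphate genes, G6pdx included. The promoter of Ldha had 5 matches of ACGTG within 250 bases, and those of Pgk1 and Bnip3 had 2 each. CACGTG was found for 7 of 37 members (18.9%), against 6.86% of all genes with a promoter in the table and 8.11% of those on the array. The list holds HIF genes and HIF targets by choice, so the members' shares follow in part from that choice. Such a match is a description of the letters and is not a measured binding site.

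No member passed the adjusted threshold, against 0.0953% of all genes and 0.181% of the 9969 brighter genes that were called higher and 0% that were called lower. At an unadjusted p under 0.05 (limma), 8 of 39 members (20.5%) were higher after G-CSF and 0 were lower, where 6.07% of all genes were higher and 2.94% lower. Among the 9969 brighter genes these shares were 11% and 1.58%. The groups lay apart, with G-CSF higher, for 5 members (12.8%) against 3.37% of all genes and 6.18% of the brighter genes. They lay apart with G-CSF lower for 0 members, against 2.78% of all genes and 1.21% of the brighter genes. Without PBS replicate 3, 0 members passed the adjusted threshold, against 0.12% of all genes that were called higher and 0.01% lower (0.241% and 0.01% of the brighter genes). Then 8 members were again higher at an unadjusted p under 0.05, against 5.64% of all genes and 9.58% of the brighter genes, and 0 were lower, against 3.12% and 3.31%. The groups of 5 members lay apart with G-CSF higher, against 4.76% and 7.59%, and of 0 with G-CSF lower, against 3.94% and 3.21%. With PBS replicate 2 left out in place of replicate 3, 13 members were higher at an unadjusted p under 0.05 and the groups of 9 lay apart with G-CSF higher. In that fit 6.37% of all genes and 11.7% of the brighter genes were higher at an unadjusted p under 0.05, and 5.35% and 9.8% lay apart with G-CSF higher.

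The median log2 fold change of the members was 0.33, with a range from -0.24 for Vegfa to 1.52 for Pgd, and 35 of 39 were above 0. The median over all genes was -0.07, with 41.7% above 0, and that of the brighter genes was 0.13, with 66.5% above 0. Without PBS replicate 3 the members' median was 0.26, with 31 of 39 above 0. The medians of all genes and of the brighter genes were then -0.02 and 0.05, with 46.9% and 58.1% above 0.

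**Figure D1:**
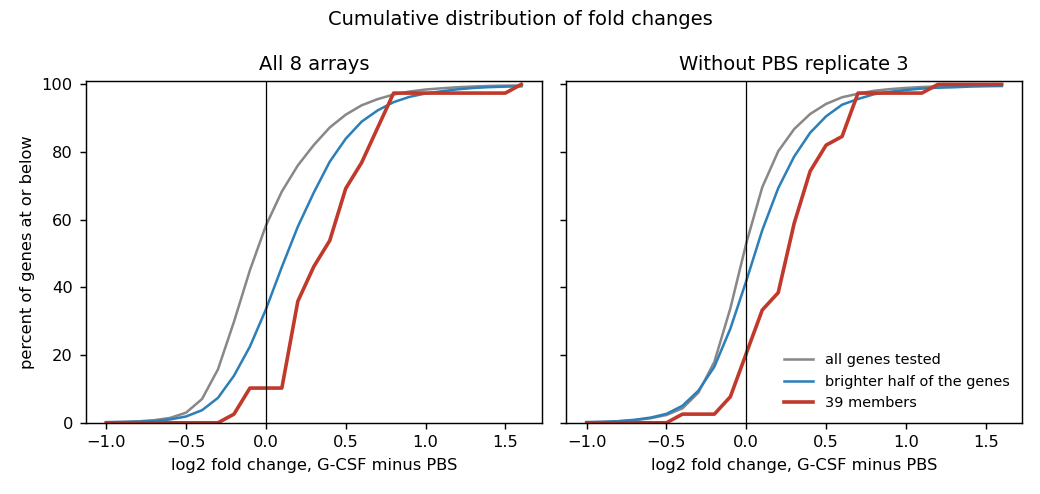
Cumulative distribution of log2 fold changes (G-CSF minus PBS, x axis) as the percent of genes at or below each value (y axis), for all 19938 genes, the 9969 brighter genes and the 39 members, with all 8 arrays and without PBS replicate 3. At or below 0 lie 10.3% of members against 58.3% of all genes and 33.5% of the brighter genes on all arrays, and 20.5% against 53.1% and 41.9% without PBS replicate 3. At the upper end the curves cross, with 97.4% of members, 97% of all genes and 94.8% of the brighter genes at or below 0.8 on all arrays.

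The differences were unevenly spread over the pathway. The 9 genes from aldolase to lactate dehydrogenase had a median log2 fold change of 0.68 and held 6 of the 8 members at an unadjusted p under 0.05 and 4 of the 5 whose groups lay apart. The median was 0.45 for the 4 transporters and for the 5 measured pentose phosphate genes. It was 0.21 for the 8 genes of hexokinase, phosphofructokinase and its regulators and 0.16 for the 4 pyruvate dehydrogenase kinases. For the 4 HIF factors and hydroxylases it was 0.15, and for the 5 HIF targets outside glycolysis 0.19. HIF targets within glycolysis were counted under their own steps. Without PBS replicate 3 these medians were 0.44, 0.18, 0.35, 0.12, 0.18, 0.08 and 0.23, in the same order. The differences between these medians were not tested.

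**Figure D2:**
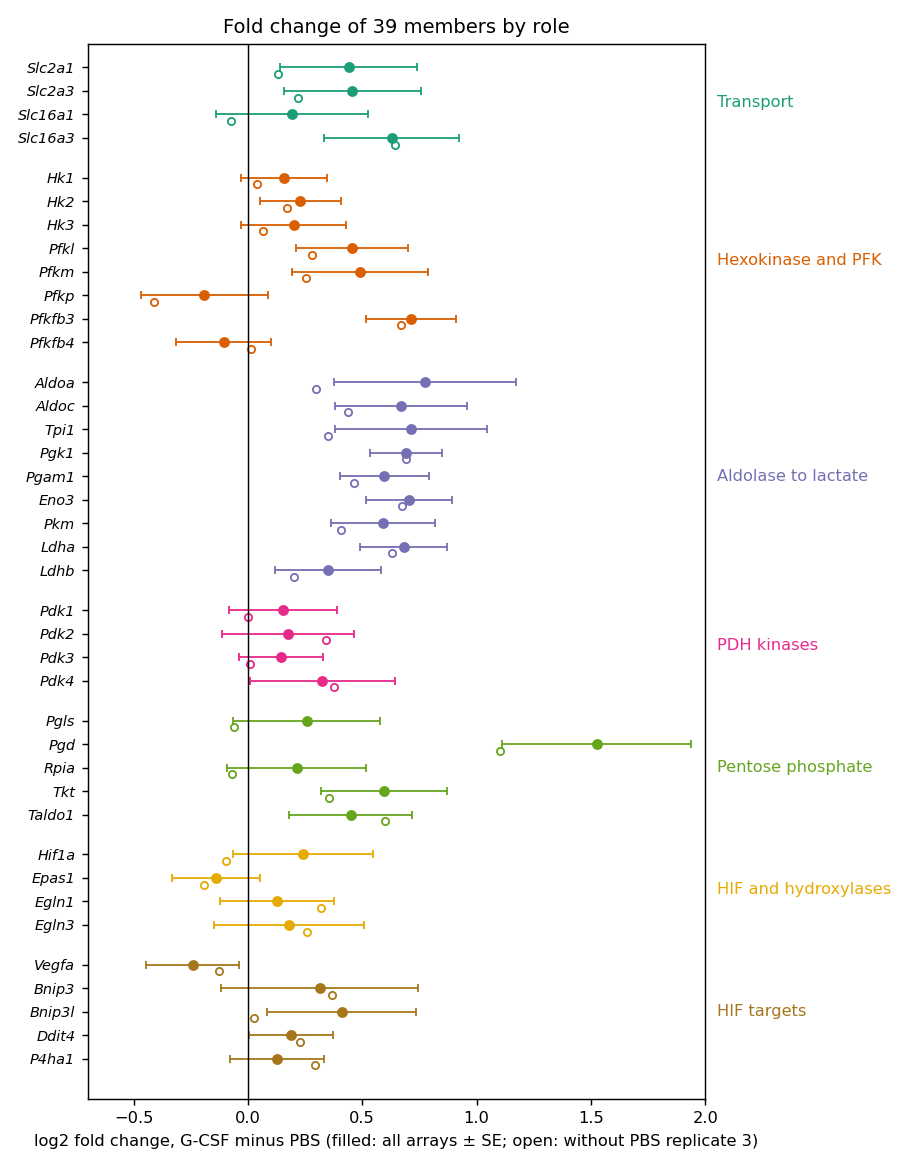
Log2 fold change of each of the 39 measured members (x axis, G-CSF minus PBS), grouped by role; filled points are fits on all 8 arrays with the SE, and open points leave out PBS replicate 3. All 9 genes from aldolase to lactate dehydrogenase lie above 0, Pgd lies farthest right, and Aldoa shifts from 0.77 to 0.30 without PBS replicate 3.

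Uptake of glucose and export of lactate come before and after the pathway. Slc2a1, the widespread glucose transporter, had log2 intensities of 8.24, 8.35, 8.52 and 8.29 in G-CSF replicates 1 to 4 and 7.77, 8.28, 6.99 and 8.60 in PBS replicates 1 to 4. The 4 G-CSF values lay within the PBS range, in which replicate 3 was low and replicate 4 high, and the log2 fold change of 0.44 ± 0.30 SE (limma adjusted p = 0.609) was 0.13 without PBS replicate 3. Slc2a3, a glucose transporter of high affinity, had 0.46 ± 0.30 SE, and 0.22 without that array. Slc16a1, which carries lactate in both directions, had 0.19 ± 0.33 SE, and -0.07 without PBS replicate 3, so its sign turned. Slc16a3, the lactate exporter of glycolytic cells, had 7.14, 7.64, 6.37 and 6.12 in G-CSF replicates 1 to 4 and 6.14, 6.14, 6.23 and 6.25 in PBS replicates 1 to 4. Its G-CSF replicates 1 to 3 lay above all PBS values, whereas replicate 4 was the lowest of the 8 arrays, and its log2 fold change was 0.63 ± 0.30 SE (unadjusted p = 0.0564, limma adjusted p = 0.552), and 0.64 without PBS replicate 3.

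Hexokinase traps glucose in the cell. Hk2, the inducible form, had 5.93, 5.83, 6.37 and 5.998 in G-CSF replicates 1 to 4 and 5.75, 5.93, 5.63 and 5.91 in PBS replicates 1 to 4, with overlapping groups and a log2 fold change of 0.23 ± 0.18 SE (limma adjusted p = 0.63), and 0.17 without PBS replicate 3. Hk1, the constitutive form, had 0.16 ± 0.19 SE, but its brightest probe set is annotated through 1 older transcript record, and 16 further probe sets name Hk1 together with other genes. The other probe set that names Hk1 alone had a log2 fold change of 0.33. Hk3, of white blood cells, had 0.20 ± 0.23 SE. On the other 7 arrays the brightest Hk1 probe set had 0.04 and Hk3 had 0.07.

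Phosphofructokinase commits sugar to glycolysis, and its subunits had fold changes of both signs. The liver-type subunit Pfkl had a log2 fold change of 0.46 ± 0.25 SE and the muscle-type Pfkm 0.49 ± 0.30 SE, whereas the platelet-type Pfkp had -0.19 ± 0.28 SE. Without PBS replicate 3 these were 0.28, 0.25 and -0.41, and none of the 3 passed in either fit (limma adjusted p between 0.577 and 0.838).

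Pfkfb3 makes a fructose bisphosphate that activates phosphofructokinase. It had log2 intensities of 6.77, 7.27, 7.07 and 7.51 in G-CSF replicates 1 to 4 and 6.33, 6.68, 6.31 and 6.45 in PBS replicates 1 to 4. All 4 G-CSF values lay above the PBS values, the closest being 6.77 in G-CSF replicate 1 and 6.68 in PBS replicate 2. The mean was 7.16 ± 0.31 (SD, n = 4) in G-CSF samples, against 6.44 ± 0.17 (SD, n = 4) in the controls, a 1.64-fold difference with a log2 fold change of 0.71 ± 0.20 SE (limma adjusted p = 0.305), and 0.67 without PBS replicate 3. Its relative Pfkfb4 had -0.11 ± 0.21 SE, and 0.01 without PBS replicate 3, so its sign turned.

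**Figure D3:**
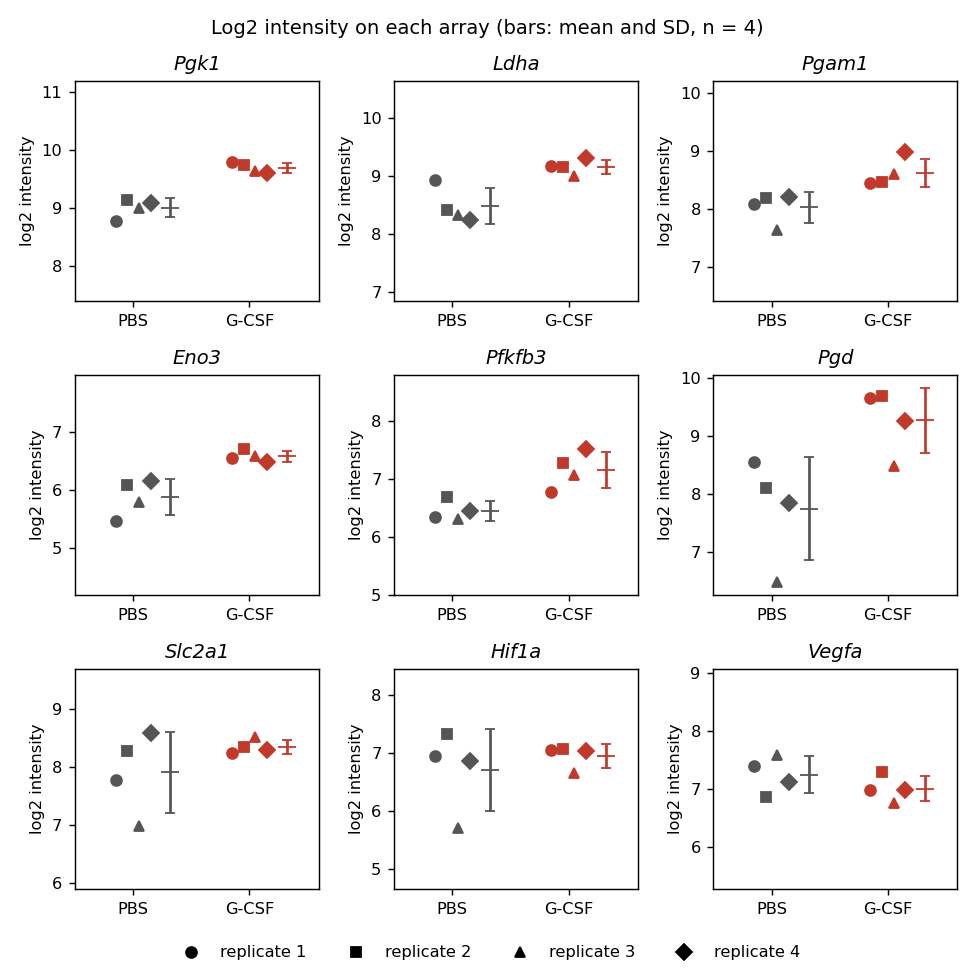
Log2 intensity (y axis, same span in each panel) of 9 members on each array; symbols give the replicate number and bars the mean and SD of 4 arrays. For Pgk1, Ldha, Pgam1, Eno3 and Pfkfb3 all G-CSF points lie above all PBS points, for Pgd G-CSF replicate 3 meets the PBS range, and for Slc2a1, Hif1a and Vegfa the groups overlap.

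Below phosphofructokinase, the clearest separation was that of Pgk1, phosphoglycerate kinase, which carries out 1 of the ATP-making steps of the payoff phase. Its values were 9.79, 9.74, 9.63 and 9.61 in G-CSF replicates 1 to 4 and 8.78, 9.14, 9.0 and 9.09 in PBS replicates 1 to 4. The 4 G-CSF arrays lay close together, and the highest PBS value, in replicate 2, was below all of them. The mean was 9.69 ± 0.09 (SD, n = 4) in G-CSF samples, against 9.0 ± 0.16 (SD, n = 4) in the controls, a 1.61-fold difference with a log2 fold change of 0.69 ± 0.16 SE (95% interval 0.34 to 1.04, unadjusted p = 0.00115, limma adjusted p = 0.208). It was 0.69 without PBS replicate 3 (adjusted p = 0.163), and that array was not the lowest for this gene. Of its 2 further probe sets, 1 had the same fold change (0.691) and mean level (9.346) as the one used and may not be a separate reading. The other gave 0.67.

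Ldha, the lactate dehydrogenase subunit that favours lactate, had 9.17, 9.16, 9.01 and 9.31 in G-CSF replicates 1 to 4 and 8.94, 8.42, 8.33 and 8.25 in PBS replicates 1 to 4. PBS replicate 1, at 8.94, came closest to the G-CSF values, and the groups lay apart. The mean was 9.16 ± 0.12 (SD, n = 4) against 8.48 ± 0.31 (SD, n = 4), with a log2 fold change of 0.68 ± 0.19 SE (limma adjusted p = 0.316), and 0.63 without PBS replicate 3. Ldhb, the subunit of oxidative tissues, had 7.76, 7.48, 8.21 and 8.23 in G-CSF replicates 1 to 4 and 7.64, 7.91, 7.12 and 7.59 in PBS replicates 1 to 4. Its groups overlapped, with G-CSF replicate 2 below 3 of the PBS arrays, and its log2 fold change was 0.35 ± 0.23 SE (limma adjusted p = 0.606), and 0.20 without PBS replicate 3.

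Pgam1, phosphoglycerate mutase, had 8.45, 8.47, 8.61 and 8.97 in G-CSF replicates 1 to 4 and 8.09, 8.19, 7.64 and 8.20 in PBS replicates 1 to 4. G-CSF replicate 4 was the highest and PBS replicate 3 the lowest, and the groups lay apart with a log2 fold change of 0.60 ± 0.20 SE (limma adjusted p = 0.419), and 0.47 without PBS replicate 3. Of its other probe sets, 1 had the same fold change (0.597) and mean level (8.327) as the one used and may not be a separate reading. The other gave 0.79. Eno3, the enolase of muscle, had 6.56, 6.70, 6.58 and 6.48 in G-CSF replicates 1 to 4 and 5.47, 6.08, 5.79 and 6.16 in PBS replicates 1 to 4. The 4 G-CSF values lay close together with an SD of 0.09, above all PBS values, and the log2 fold change was 0.70 ± 0.19 SE (limma adjusted p = 0.303), and 0.67 without PBS replicate 3.

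Pkm, pyruvate kinase, had 9.16, 9.61, 9.76 and 9.58 in G-CSF replicates 1 to 4 and 9.05, 9.32, 8.38 and 8.997 in PBS replicates 1 to 4. G-CSF replicate 1 lay below PBS replicate 2, so the groups overlapped, and the log2 fold change of 0.59 ± 0.23 SE (unadjusted p = 0.0238, limma adjusted p = 0.5) was 0.41 without PBS replicate 3. A further Pkm probe set gave 0.92. Aldoc, an aldolase of brain, had 7.18, 6.66, 7.10 and 7.52 in G-CSF replicates 1 to 4 and 6.88, 6.96, 5.75 and 6.19 in PBS replicates 1 to 4. Its PBS replicates 3 and 4 were low and its log2 fold change was 0.67 ± 0.29 SE (unadjusted p = 0.0402, limma adjusted p = 0.536), and 0.44 without PBS replicate 3 (unadjusted p = 0.107).

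Aldoa, the widespread aldolase, and Tpi1, triose phosphate isomerase, show how much 1 array weighs. Aldoa had 10.34, 10.75, 10.37 and 10.29 in G-CSF replicates 1 to 4 and 10.03, 10.50, 8.24 and 9.89 in PBS replicates 1 to 4, where PBS replicate 3 was far below every other array. Its log2 fold change was 0.77 ± 0.40 SE with all arrays and 0.30 without that array. Tpi1 had 0.71 ± 0.33 SE, and 0.35 without it. Many glycolytic genes have processed copies in the genome, and probe sets of Aldoa, Tpi1, Pgk1, Pgam1, Pkm and Ldha could read such copies, which was not tested.

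The kinases of pyruvate dehydrogenase, which keep pyruvate from oxidation, did not separate. Pdk2 had 7.63, 7.91, 7.81 and 7.70 in G-CSF replicates 1 to 4 and 8.09, 6.68, 8.09 and 7.49 in PBS replicates 1 to 4, with PBS replicate 2 far below the rest, and a log2 fold change of 0.17 ± 0.29 SE. Pdk4, the kinase of fasting and fat oxidation, had 4.46, 4.90, 6.16 and 5.09 in G-CSF replicates 1 to 4 and 4.61, 4.59, 4.99 and 5.12 in PBS replicates 1 to 4, where G-CSF replicate 3 was the highest and G-CSF replicate 1 the lowest of the 8. Its log2 fold change was 0.33 ± 0.32 SE, and that of Pdk1, a HIF target, was 0.15 ± 0.24 SE and that of Pdk3 was 0.15 ± 0.18 SE. All 4 had limma adjusted p values between 0.685 and 0.798. With PBS replicate 3 left out, the values were 0.34 for Pdk2, 0.38 for Pdk4, -0.0014 for Pdk1, so that its sign turned, and 0.01 for Pdk3.

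Pgd, 6-phosphogluconate dehydrogenase, which makes NADPH in the oxidative branch of the pentose phosphate pathway, had the largest fold change of the members. Its values were 9.65, 9.69, 8.49 and 9.26 in G-CSF replicates 1 to 4 and 8.56, 8.11, 6.49 and 7.85 in PBS replicates 1 to 4. G-CSF replicates 1, 2 and 4 lay above all PBS arrays and G-CSF replicate 3 lay just under PBS replicate 1, while PBS replicate 3 was far below the rest. The mean was 9.27 ± 0.56 (SD, n = 4) in G-CSF samples, against 7.75 ± 0.89 (SD, n = 4) in the controls, a 2.88-fold difference with a log2 fold change of 1.52 ± 0.41 SE (95% interval 0.61 to 2.43, unadjusted p = 0.00357, limma adjusted p = 0.303). Without PBS replicate 3 it was 1.103 (limma adjusted p = 0.307).

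The rest of the pentose phosphate pathway differed less. Transketolase (Tkt), which links the pathway back to glycolysis, had 0.59 ± 0.28 SE (unadjusted p = 0.0537), and 0.35 without PBS replicate 3. Transaldolase (Taldo1), its partner, had 8.55, 9.11, 8.52 and 8.76 in G-CSF replicates 1 to 4 and 8.64, 7.52, 8.73 and 8.26 in PBS replicates 1 to 4. PBS replicate 2 was low for Taldo1 and PBS replicate 3 was not, and the log2 fold change was 0.45 ± 0.27 SE with all arrays and 0.60 without PBS replicate 3 (unadjusted p = 0.0483, limma adjusted p = 0.566). Pgls, the lactonase of the oxidative branch, had 0.26 ± 0.32 SE and Rpia, ribose phosphate isomerase, 0.21 ± 0.30 SE. Both turned sign without PBS replicate 3, with -0.06 and -0.07.

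The groups overlapped for each of the 4 members that are HIF factors or hydroxylases. Hif1a, the regulated subunit of the main hypoxia factor, had 7.06, 7.06, 6.65 and 7.03 in G-CSF replicates 1 to 4 and 6.95, 7.32, 5.70 and 6.85 in PBS replicates 1 to 4. The highest value was in PBS replicate 2 and the lowest in PBS replicate 3, the groups overlapped, and the log2 fold change of 0.24 ± 0.30 SE (limma adjusted p = 0.74) was -0.09 without that array. Epas1, the related subunit prominent in endothelium, had 5.84, 5.85, 5.73 and 6.02 in G-CSF replicates 1 to 4 and 6.04, 5.68, 5.84 and 6.44 in PBS replicates 1 to 4. The highest and the lowest values were both in the PBS group, and its log2 fold change was -0.14 ± 0.19 SE (95% interval -0.56 to 0.29). Of the prolyl hydroxylases that mark HIF for destruction, Egln1 had 0.13 ± 0.25 SE and Egln3, itself a HIF target, 0.18 ± 0.33 SE. Leaving out the same array gave -0.19 for Epas1, 0.32 for Egln1 and 0.26 for Egln3.

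Among HIF targets outside glycolysis, Vegfa, the vascular growth factor, had 6.997, 7.29, 6.77 and 6.99 in G-CSF replicates 1 to 4 and 7.41, 6.87, 7.60 and 7.13 in PBS replicates 1 to 4. Its groups overlapped, with a log2 fold change of -0.24 ± 0.20 SE (95% interval -0.69 to 0.20, limma adjusted p = 0.643), the lowest of the 39. Bnip3, a mitophagy receptor, had 7.03, 5.81, 6.75 and 7.75 in G-CSF replicates 1 to 4 and 6.05, 5.84, 6.68 and 7.51 in PBS replicates 1 to 4, so that the spread within each group, with SDs of 0.80 and 0.75, exceeded the log2 fold change of 0.31 ± 0.43 SE. Its relative Bnip3l, a mitophagy receptor of red cell maturation, had 0.41 ± 0.33 SE, and 0.03 without PBS replicate 3. Ddit4, an inhibitor of mTOR induced by stress, had 0.19 ± 0.18 SE, and P4ha1, a collagen prolyl hydroxylase, 0.13 ± 0.21 SE. When PBS replicate 3 was left out, Vegfa had -0.13, Bnip3 0.37, Ddit4 0.23 and P4ha1 0.29.

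For 8 pairs of related genes, the difference between both genes was taken within each array and the groups were compared by exact permutation, 2-sided. The lowest p this design allows is 0.0286. The pairs were chosen after the values were seen. The largest gap was that of Pfkfb3 over Pfkfb4, whose log2 fold changes differed by 0.82 (exact p = 0.0571, 0.457 adjusted over the 8 pairs). Ldha exceeded Ldhb by 0.33 (exact p = 0.257, adjusted 0.914), with SDs of the within-array difference of 0.38 in G-CSF and 0.39 in PBS samples. Hif1a exceeded Epas1 by 0.38 (exact p = 0.343, adjusted 0.914) and Slc16a3 exceeded Slc16a1 by 0.43 (exact p = 0.543, adjusted 0.943). The other 4 pairs (Aldoa and Aldoc, Slc2a1 and Slc2a3, Egln1 and Egln3, Bnip3l and Bnip3) had differences from -0.05 to 0.10, with adjusted exact p = 0.943 for each. No pair passed, and with 4 arrays a group this does not show that the pairs acted alike. Each gap includes PBS replicate 3, and the pairs were not tested without it. Without it the log2 fold changes were -0.09 for Hif1a and -0.19 for Epas1, and 0.67 for Pfkfb3 and 0.01 for Pfkfb4. They were 0.63 for Ldha and 0.20 for Ldhb, 0.64 for Slc16a3 and -0.07 for Slc16a1, and 0.13 for Slc2a1 and 0.22 for Slc2a3. The gaps changed sign for Aldoa (0.30) and Aldoc (0.44), Bnip3l (0.03) and Bnip3 (0.37), and Egln1 (0.32) and Egln3 (0.26).

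Of 61 further genes of these pathways, 53 were measured, and 0 passed the adjusted threshold (limma). At an unadjusted p under 0.05, 5 were higher and 2 lower, and the groups lay apart for 3 higher and 2 lower, beside 6.07%, 2.94%, 3.37% and 2.78% of all genes in the same order. With PBS replicate 3 left out, 8 were higher and 2 lower at an unadjusted p under 0.05, and the groups lay apart for 4 higher and 2 lower. Those counts stand beside 5.64%, 3.12%, 4.76% and 3.94% of all genes. Their median log2 fold change was 0.16, and 0.08 without PBS replicate 3. The widely used enzyme genes Gapdh, Gpi1 and Eno1 were among the 8 not analysed here.

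Bhlhe40, a transcriptional repressor that HIF and other signals induce, had 6.96, 6.99, 7.63 and 7.57 in G-CSF replicates 1 to 4 and 5.81, 6.56, 4.76 and 5.10 in PBS replicates 1 to 4. All G-CSF values lay above all PBS values, with the PBS values widely spread, and the log2 fold change was 1.73 ± 0.35 SE (limma adjusted p = 0.147), and 1.47 without PBS replicate 3. Without PBS replicate 2 it was 2.07 (limma adjusted p = 0.0359), the 1 fit in which a gene of this further list passed. Pdha1, the catalytic subunit of pyruvate dehydrogenase that the Pdk kinases inhibit, had 7.69, 7.66, 7.80 and 7.49 in G-CSF replicates 1 to 4 and 7.32, 6.96, 6.32 and 7.06 in PBS replicates 1 to 4. Its groups lay apart with a log2 fold change of 0.75 ± 0.22 SE (limma adjusted p = 0.342), and 0.55 without PBS replicate 3. For the other subunits the log2 fold change was 0.25 for Pdhb, -0.17 for Dlat, 0.30 for Dld and 0.34 for Pdhx. On the 7 arrays without PBS replicate 3 it was 0.0084 for Pdhb, -0.41 for Dlat, 0.38 for Dld, whose groups then lay apart, and 0.26 for Pdhx.

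Fam162a, a HIF target of mitochondria, had 8.21, 8.09, 8.49 and 8.33 in G-CSF replicates 1 to 4 and 7.61, 7.95, 8.04 and 7.86 in PBS replicates 1 to 4, with groups apart and a log2 fold change of 0.41 ± 0.17 SE (limma adjusted p = 0.53). Eno2, the neuronal enolase, had 4.84, 5.27, 4.89 and 5.06 in G-CSF replicates 1 to 4 and 5.34, 5.92, 5.46 and 5.50 in PBS replicates 1 to 4, with all G-CSF values below all PBS values and a log2 fold change of -0.54 ± 0.19 SE (limma adjusted p = 0.451). Eno2 was dim, under the median of all genes on every array but PBS replicate 2. Hif3a, which can restrain the other HIF subunits, had 6.14, 6.35, 6.36 and 5.996 in G-CSF replicates 1 to 4 and 6.44, 6.504, 6.79 and 6.63 in PBS replicates 1 to 4, with groups apart and lower after G-CSF at -0.38 ± 0.17 SE (limma adjusted p = 0.546). The HIF targets Car9 and Ndrg1 had 0.80 ± 0.22 SE and 0.87 ± 0.30 SE with overlapping groups, and Ankrd37 and Adm, also HIF targets, had -0.44 ± 0.24 SE and -0.26 ± 0.24 SE. Leaving out PBS replicate 3 gave 0.47 for Fam162a, -0.57 for Eno2, -0.31 for Hif3a, 0.73 for Car9, 0.59 for Ndrg1, -0.25 for Ankrd37 and -0.13 for Adm.

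**Figure D4:**
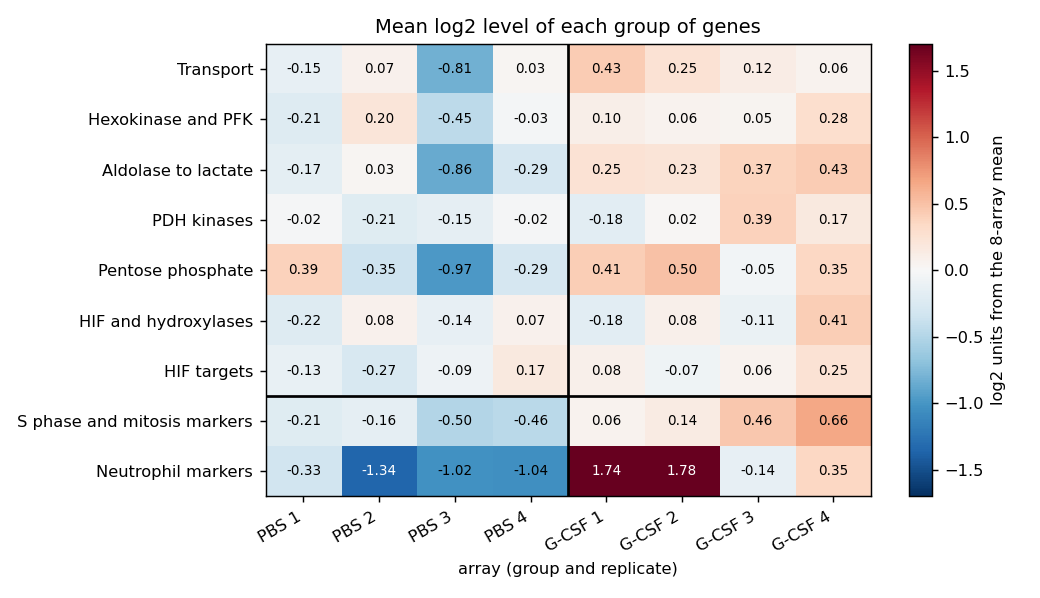
Mean log2 level of each group of members on each array, and of 23 S phase and mitosis markers and 16 neutrophil markers, as the difference from the group's own mean over the 8 arrays (colour and number). PBS replicate 3 is lowest for transport (-0.81), aldolase to lactate (-0.86) and pentose phosphate (-0.97), and the neutrophil markers are high in G-CSF replicates 1 and 2 (1.74 and 1.78).

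Markers of neutrophils and of proliferation were read on the same arrays, and none of them passed the adjusted threshold (limma). The mean log2 level of the 9 genes from aldolase to lactate dehydrogenase was 8.60, 8.57, 8.72 and 8.78 in G-CSF replicates 1 to 4, above the 7.49 to 8.37 of the PBS arrays. That of 23 measured genes of S phase and mitosis, out of 24 listed, was 7.85, 7.93, 8.25 and 8.46 in the same order, above the 7.29 to 7.64 of the PBS arrays, and 15 of the 23 were higher at an unadjusted p under 0.05. Of 20 listed neutrophil markers 16 were measured, with a mean of 10.28, 10.32, 8.40 and 8.89 in G-CSF replicates 1 to 4. The PBS arrays had 7.19 to 8.21, and 15 of the 16 were higher at an unadjusted p under 0.05 (limma). Over all genes 6.07% were higher at that level, and 11% of the brighter genes. None of these markers could be called at 0, since no detection call was available. G-CSF replicates 1 and 2 were high for the neutrophil markers and were also the highest for Pgd, at 9.65 and 9.69, and for Slc16a3, at 7.14 and 7.64. Both genes were named here after their values were seen. Other members had another order within the G-CSF group, with Pgam1, Pfkm, Ldhb and Pdk1 highest in replicates 3 and 4. The S phase and mitosis markers were highest in those arrays as well. The part of sorted cell make-up and of cell division in the members' differences was not tested.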

How the data were processed

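The values deposited by the authors are linear intensities, 1 for each probe set on each of 8 arrays, 4 per group. They were made with RMA, per the submitters' processing notes, and the version and settings were not stated in any source at hand. The intensities ran from 2.15 to 16163 and log2 was taken before each test. Of 35556 probe sets, 21789 carried 1 gene symbol in GEO's platform annotation, 1621 several and 12146 none. Probe sets with 1 symbol were used, the brightest per gene, which left 19938 genes with no filter on dim ones. The 2 groups were then tested by lmFit and eBayes of limma 3.58.1, run in R 4.3.3. The scripts were tested on simulated arrays. The number of arrays limits the precision.

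All members are named, with values on every array for those whose groups lay apart, those at an unadjusted p under 0.05 and Hif1a, Epas1, Slc2a1, Hk2, Pdk2, Pdk4, Ldha, Ldhb, Pkm and Vegfa. The values of Slc16a3, Taldo1, Aldoa and Bnip3 on every array were added after they were seen. Further pathway genes are named where their groups lay apart, and Pdhb, Dlat, Dld, Pdhx, Car9, Ndrg1, Ankrd37 and Adm after their values were seen. The members and lists were chosen with earlier results of these data known, so no list was tested as a set. Promoters came from RefSeq (GRCm38.p6), a table that was used for sequence only and not tied to the array's own design. Alternatives covered variance moderation, a replicate block, array weights, dim genes, normalization, centring, the choice of probe sets, an added constant of 16 before log2, the threshold and each array left out.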

Additional observations from a re-analysis of the deposited data

Results flagged for a closer look

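In 4 of the 78 groups of 4 arrays, 1 array lay far from the other 3 by Dixon's criterion, which flags about 1 in 20 groups by chance. Hk3 was 5.94 in G-CSF replicate 3, against 6.58 to 6.70 in the other G-CSF arrays. Aldoa was 10.75 in G-CSF replicate 2, against 10.29 to 10.37. Hif1a was 6.65 in G-CSF replicate 3, against 7.03 to 7.06. Bnip3l was 8.75 in PBS replicate 3, against 10.19 to 10.36 in the other PBS arrays.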

How the results depend on the processing

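The 4 arrays a group and the spread of PBS replicate 3 limit these results. Over 19 alternative fits the members' median log2 fold change stayed above 0, from 0.24 with renewed quantile normalization and PBS replicate 3 left out to 0.42 without PBS replicate 4. No alternative but the replicate block called a member. With the replicate block 1 member passed, namely Pgd with a log2 fold change of 1.52 (limma adjusted p = 0.0468, against 0.0468 to 0.67 over all alternatives). The main fit left the replicate numbers out because the series' design calls the samples of each group independent. The correlation of same-numbered arrays' deviations was low, at -0.025, 0.056, 0.062 and 0.135. With 4 arrays a group, these correlations cannot settle whether the numbers pair the samples. Pgk1 kept a log2 fold change of 0.59 to 0.77, with adjusted p from 0.0919 to 0.55. The count of all genes called was 40 with array weights, 10 after renewed quantile normalization, 0 with all probe sets in the fit (2743 at an unadjusted p under 0.05), 52 at a threshold of 0.10 and 3 to 31 with each array left out, against 19. With each array left out, 7 to 13 members were higher at an unadjusted p under 0.05 (4.05% to 7.48% of all genes, 7.13% to 13.8% of the brighter genes), 5 to 9 lay apart with G-CSF higher (4.06% to 6.22%, and 7.27% to 11.5%), and 0 to 1 of the further pathway genes passed, the 1 being Bhlhe40. Of 739 member values under alternatives, 28 changed sign, in 15 members, and none of these was past the threshold. With array weights Slc16a1 had -0.0577, Pgls -0.0112, Rpia -0.0617 and Hif1a -0.0291. After renewed quantile normalization Hk1 had -0.0059. With PBS replicate 3 left out as well, Slc16a1 had -0.0537, Hk1 -0.0423, Pfkfb4 0.0681, Pdk1 -0.033, Pdk3 -0.0222, Pgls -0.086, Rpia -0.081, Hif1a -0.115 and Bnip3l -0.057. With each array left out in turn, the log2 fold change ran from -0.0721 to 0.454 for Slc16a1, -0.411 to 0.0655 for Pfkp, -0.207 to 0.0282 for Pfkfb4, -0.0014 to 0.30 for Pdk1, -0.13 to 0.34 for Pdk2, -0.0096 to 0.56 for Pdk4, -0.0619 to 0.531 for Pgls, -0.0705 to 0.472 for Rpia, -0.0943 to 0.447 for Hif1a, -0.24 to 0.0068 for Epas1, -0.0184 to 0.319 for Egln1 and -0.15 to 0.39 for Egln3. The cause of these changes was not tested.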

Other observations

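The other marker lists gave these mean log2 levels per array. Granule genes of progenitors, such as Mpo and Elane, had 7.96, 7.44, 7.22 and 7.89 in G-CSF replicates 1 to 4 and 7.43, 7.04, 6.42 and 5.93 in PBS replicates 1 to 4, and 4 of 8 were higher at an unadjusted p under 0.05 (limma). Monocyte and macrophage genes had 7.76, 7.89, 7.12 and 7.35 and 7.80, 6.76, 6.82 and 6.80, with PBS replicate 1 within the G-CSF range, and 4 of 8 were higher at an unadjusted p under 0.05 (limma). Erythroid genes had 6.66 to 7.62 in G-CSF and 6.81 to 8.05 in PBS samples, and megakaryocyte genes 6.58 to 7.23 and 7.04 to 7.82. Lymphoid genes had 5.20 to 5.68 and 5.27 to 5.58, and genes of the stem cell gate 8.23 to 8.78 and 7.90 to 8.61. The stem cell gate list mixes markers the sort selects, such as Kit and Slamf1, with markers it excludes, such as Cd48 and Itga2b. Its mean and counts therefore do not show whether the gate was kept. At an unadjusted p under 0.05 (limma), 0 of 6 erythroid genes were called and 1 of 6 megakaryocyte genes was lower. Of 8 lymphoid genes 1 was higher and 1 lower, and 1 of 10 stem cell gate genes was higher. Over all genes 6.07% were higher and 2.94% lower at that level, and 11% and 1.58% of the brighter genes.

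Of the signs of RNA quality and handling, ribosomal protein genes had 12.26, 12.22, 12.26 and 12.29 in G-CSF replicates 1 to 4 and 12.22, 12.16, 11.50 and 12.10 in PBS replicates 1 to 4, with PBS replicate 3 the lowest. Immediate-early genes, which respond to handling, had 9.28, 8.79, 8.85 and 9.14 and 9.14, 9.36, 8.38 and 9.33, again with PBS replicate 3 the lowest. Of 12 ribosomal protein genes 0 were called at an unadjusted p under 0.05 (limma), but the groups of 3 lay apart with G-CSF higher. Of 9 immediate-early genes 1 was higher at that level, and the groups of 1 lay apart with G-CSF higher. The groups lay apart in this direction for 3.37% of all genes and 6.18% of the brighter genes. No member of any of these 8 lists passed the adjusted threshold.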
